A study of Mus musculus with 24 samples.

Results

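The 10 genes described here encode enzymes that break down the branched-chain amino acids leucine, isoleucine and valine, together with the kinase that holds the pathway's central complex in check. They are Bcat2, Bckdha, Bckdhb, Dbt, Bckdk, Ivd, Acad8, Hibadh, Aldh6a1 and Pccb. Every probe annotated with one of these symbols was taken, which gave 16 of the 25697 probes on the array and 10 of the 16593 genes that those probes name. Of the 16 probes, 14 passed a filter on dim probes, which asked that the detection p be below 0.05 in 3 or more arrays, and each of the 10 genes kept at least 1 probe.

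The samples were 24 total RNA preparations of NIH 3T3 L1 cells, an established mouse line of fibroblast origin that differentiates into adipocytes under hormones, each read on 1 Illumina beadchip array. There were 8 time points, days 0, 2, 4, 6, 8, 10, 14 and 18, with 3 replicates each. Cells of day 0 are labelled undifferentiated, those of days 2 and 4 differentiating and those of days 6 to 18 maturating. All labels from day 0 to day 4 name insulin, dexamethasone (a synthetic glucocorticoid) and IBMX (a phosphodiesterase inhibitor), whereas the later labels also name a medium for maturation that contains insulin, so time and medium cannot be told apart. The labels do not say that the replicates were separate cultures, so the p-values measure the spread between these samples, which may be technical. In RNA from bulk cultures a larger share of differentiated cells and more RNA of a gene in each cell cannot be told apart.

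Branched-chain amino acids are first stripped of their amino group by a transaminase, Bcat2 in mitochondria or Bcat1 in the cytosol. The branched-chain ketoacid dehydrogenase complex then removes a carboxyl group, a step that commits the carbon skeleton to oxidation. Its decarboxylase is built from the products of Bckdha and Bckdhb, Dbt encodes its lipoyl-bearing acyltransferase core, and Bckdk encodes the kinase that phosphorylates and inactivates it. Separate branches follow for each amino acid and end in acetyl-CoA or, for valine and isoleucine, in propionyl-CoA, and adipose tissue is known as a site where this carbon feeds fatty acid synthesis.

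Sequences before annotated starts are shown for some of the genes, all of which were higher on day 6 than on day 0. Their courses were alike to different degrees, and the day means of Bcat2 and Pccb correlated at 0.79 (Pearson's r). RefSeq's table for GRCm38.p6 gave 12 annotated starts for 9 of the 10 genes. The 250 bases before a start are printed 5′ to 3′ on the gene's own strand. They are for Bcat2, whose change was the largest, at chr7:45569903-45570152 on the plus strand, for Bckdhb at chr9:83924887-83925136 on the plus strand, for Hibadh at chr6:52640301-52640550 on the minus strand and for Pccb at chr9:101034885-101035134 on the minus strand. Capitals mark AGGTCA, the core element of many nuclear receptors, in Bckdhb, and in Hibadh and Pccb the element of NRF1, a factor known to act on genes for mitochondrial proteins. The printed Bcat2 window holds neither. It lies inside the annotated span of the gene, chr7:45568967-45589710, so it does not show the sequence before that span. Bcat2 and Bckdhb each have another annotated start, with windows at chr7:45571029-45571278 and chr9:83948531-83948780 that are not printed. The other Bcat2 window also lies inside the span of its gene and holds neither element.
Bcat2: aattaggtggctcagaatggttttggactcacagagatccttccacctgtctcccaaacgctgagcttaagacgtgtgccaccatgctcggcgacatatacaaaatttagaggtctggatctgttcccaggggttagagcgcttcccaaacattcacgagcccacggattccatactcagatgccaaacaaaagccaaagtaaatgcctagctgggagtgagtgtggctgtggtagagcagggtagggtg
Bckdhb: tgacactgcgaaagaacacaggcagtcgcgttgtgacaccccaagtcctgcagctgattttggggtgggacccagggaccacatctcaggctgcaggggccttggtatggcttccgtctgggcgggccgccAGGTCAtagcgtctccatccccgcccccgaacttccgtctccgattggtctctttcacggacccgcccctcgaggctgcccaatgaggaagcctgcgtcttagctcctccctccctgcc
Hibadh: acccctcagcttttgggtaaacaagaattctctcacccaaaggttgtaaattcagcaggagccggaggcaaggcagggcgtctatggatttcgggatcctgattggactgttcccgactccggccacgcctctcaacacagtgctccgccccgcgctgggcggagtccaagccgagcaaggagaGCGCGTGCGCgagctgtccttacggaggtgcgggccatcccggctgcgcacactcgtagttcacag
Pccb: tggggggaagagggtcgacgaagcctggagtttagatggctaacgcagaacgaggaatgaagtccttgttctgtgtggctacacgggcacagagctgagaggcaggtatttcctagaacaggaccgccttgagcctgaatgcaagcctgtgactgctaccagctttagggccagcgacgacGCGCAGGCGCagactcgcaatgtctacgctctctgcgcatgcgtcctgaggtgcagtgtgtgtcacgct

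Both strands of each window were searched. AGGTCA lay in 2 of the 12 windows, 1 of Bckdhb and 1 of Aldh6a1, and in 14% of all 32851 windows of the table. The NRF1 element was taken as the letters in capitals in Pccb, with any base allowed at the sixth, and the match in Hibadh is on the opposite strand. It lay in 2 of the 12 windows, those of Hibadh and Pccb, and in 3.74% of all windows. The direct repeat bound by PPAR with its partner RXR, which is AGGTCA, any single base and AGGTCA again, was in 0 of the 12 windows and in 0.0335% of all. The extended element of estrogen-related receptors, AGGTCA with TCA before it, was in 0 of the 12 and in 0.387% of all, and both of these longer motifs contain the first. CCAAT, the box bound by NF-Y, lay in 7 of the 12 windows, belonging to 6 genes, and in 33.8% of all windows. GGGCGG, the GC box, lay in 3 of the 12, those of Bckdhb, Acad8 and Hibadh, and in 32.7% of all windows. In the Bckdhb window the capitals lie 119 to 114 bases before the start, in Hibadh they lie 66 to 57 bases before it and in Pccb 69 to 60 bases before it. A match is only a match of letters.

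All values below are normalized log2 intensities, in which 1 unit is a factor of 2, and a probe that is not detected, such as that of Ucp1, reads about 4.34 to 4.46. A level can be compared between days for the same probe but not between probes. Where a gene had several probes, the brightest was used and the others are given beside it. Of the 10 genes, 10 changed over the course by limma's moderated F test with Benjamini-Hochberg adjustment over 9558 genes, where 74.5% of all genes did. Adjusted p-values ran from 5.62e-17 for Pccb to 5.12e-05 for Bckdhb. Between day 0 and day 6 all 10 rose, against 27.6% of all genes that rose, and the median change of the 10 was 2.50 while that of all genes was -0.03. On day 18 all 10 were still higher than on day 0, against 23.2% of all genes, with a median change of 2.08 while that of all genes was -0.08. In both comparisons the 3 arrays of the later day lay above the 3 arrays of day 0 for each of the 10 genes. Arrays lay apart in this way for 29.3% of all genes at day 6 and 25.5% at day 18. The 10 genes were chosen with earlier results of these data known, so setting their share against that of all genes is a description and not a test.

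**Figure D1:**
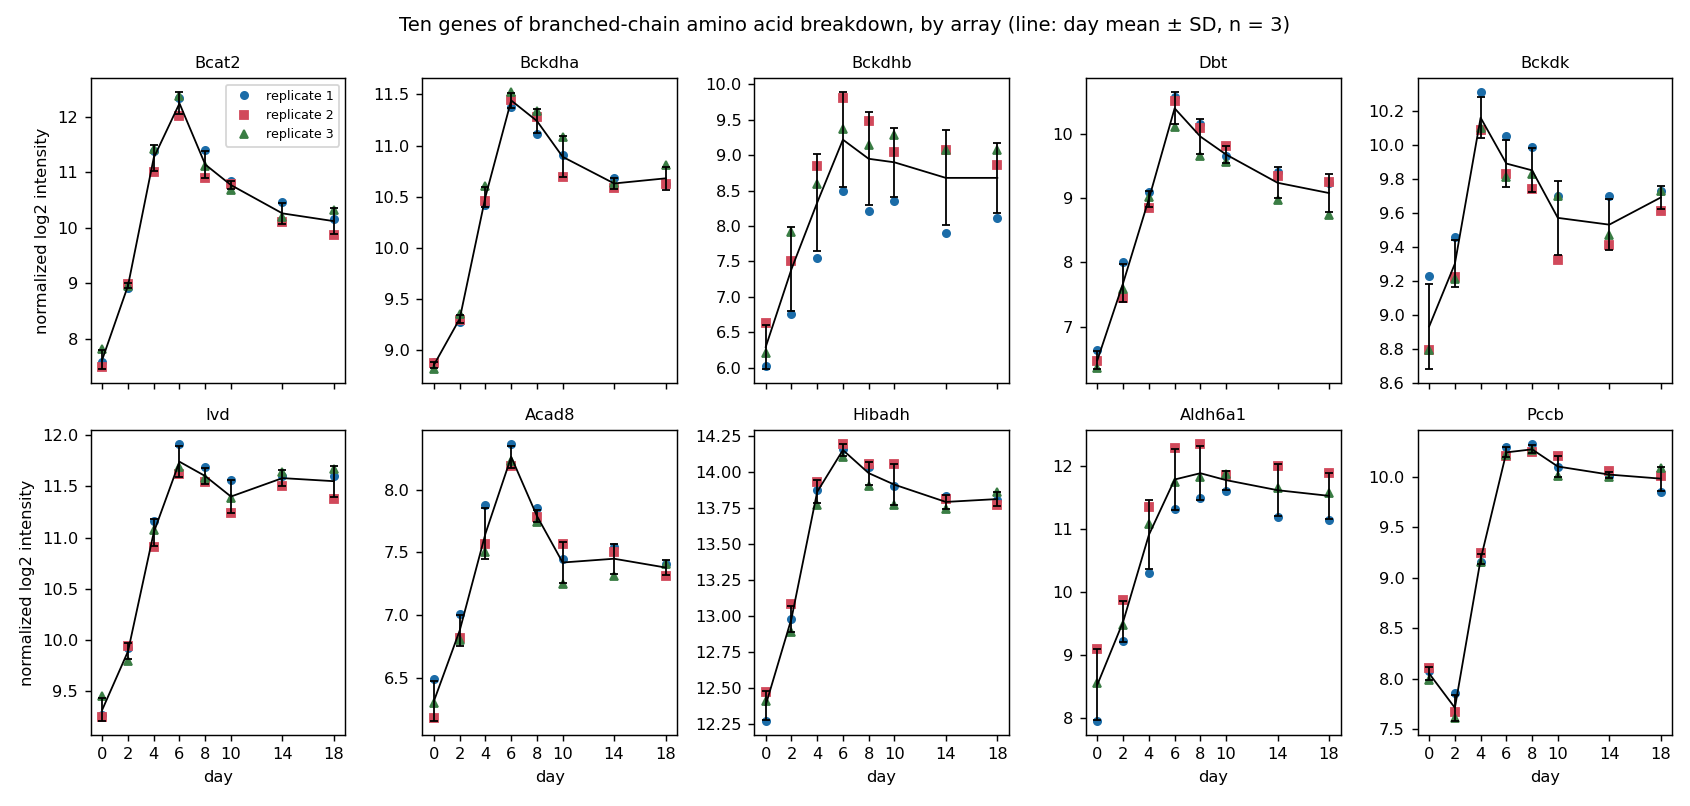
Normalized log2 intensity (vertical axis, scaled separately in each panel) of the brightest probe of each of the 10 genes against the day of culture. Points are the 3 arrays of a day by replicate number and the line joins day means with SD bars. Levels climb from day 0 in 9 panels and from day 2 in that of Pccb, are highest on day 6 in 7 of the panels and stay above day 0 on day 18.

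Bcat2, the mitochondrial transaminase that starts the breakdown (chr7:45568967-45589710, GRCm38.p6), had the largest change of the group. Its arrays read 7.58, 7.49 and 7.82 on day 0, 8.92, 8.99 and 8.96 on day 2, and 11.38, 11 and 11.41 on day 4. On day 6 they read 12.34, 12.01 and 12.38, above each array of every other day. They then read 11.40, 10.90 and 11.12 on day 8, 10.85, 10.78 and 10.68 on day 10, 10.47, 10.11 and 10.20 on day 14, and 10.16, 9.87 and 10.32 on day 18. The arrays of each day up to day 14 stayed clear of those of the time point before, while days 14 and 18 overlapped. Day 6 exceeded day 0 by 4.61 ± 0.15 (SE), or 24.4-fold (limma, adjusted p = 4.55e-16). Part of the rise was lost by the end, when day 18 lay 2.12 ± 0.15 below day 6, 4.36-fold lower (adjusted p = 8.73e-10), and 2.49 ± 0.15 above day 0, 5.61-fold higher (adjusted p = 1.16e-11).

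The courses of the other genes were set against that of Bcat2 by Pearson's correlation over the 8 day means, among 3904 genes that changed over the course and spanned at least 1 unit. The 5 most alike were Gramd1b (r = 0.9931), Clpx (r = 0.9929), Cbr1 (r = 0.9916), Uqcrc1 (r = 0.989) and Lias (r = 0.988). Gramd1b, which encodes a sterol transfer protein, read 5.98, 10.57 and 8.79 on days 0, 6 and 18. Clpx, the unfoldase of the mitochondrial Clp protease, read 8.22, 10.62 and 9.44. Uqcrc1, a core protein of respiratory complex III, read 10.51, 12.17 and 11.62. Day means share their arrays and their normalization across genes, so the correlations describe likeness of shape and carry no test.

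The 3 subunit genes of the dehydrogenase complex rose together from day 0 to day 6. Bckdha encodes the alpha subunit of the decarboxylase and lies at chr7:25629852-25658782. It read 8.89, 8.88 and 8.82 on day 0, 11.38, 11.44 and 11.52 on day 6 and 10.62, 10.62 and 10.81 on day 18. These 3 sets of arrays did not overlap, and the day means between were 9.31 ± 0.04 (SD, n = 3) on day 2, 10.50 ± 0.10 on day 4, 11.24 ± 0.12 on day 8, 10.89 ± 0.20 on day 10 and 10.63 ± 0.05 on day 14. Day 6 was 2.58 ± 0.09 (SE) above day 0, 5.99-fold (adjusted p = 2.04e-15), and day 18 was 0.76 ± 0.09 below day 6, 1.70-fold lower (adjusted p = 1.31e-06).

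Dbt encodes the acyltransferase core of the complex and lies at chr3:116513070-116549981. The arrays of its brightest probe read 6.63, 6.47 and 6.35 on day 0, 8.01, 7.44 and 7.58 on day 2, and 9.09, 8.85 and 9.02 on day 4. The highest values came on day 6 with 10.57, 10.52 and 10.11, followed by 10.15, 10.09 and 9.66 on day 8. The arrays of day 18, at 9.24, 9.25 and 8.74, lay below all of day 6 and above all of day 0. The rise to day 6 was 3.91 ± 0.18, 15.1-fold (adjusted p = 8.6e-14), and the fall from day 6 to day 18 was 2.50-fold, a log2 change of -1.32 ± 0.18 (adjusted p = 5.31e-06). A second, dimmer Dbt probe was detected on 16 of the 24 arrays and on none of days 0 and 2. It averaged 5.82 ± 0.30 (SD, n = 3) on day 6 and 5.24 ± 0.45 on day 18, at least 2.06-fold and at least 1.37-fold higher than on day 0 (adjusted p = 4.03e-05 and 0.00893). The probe passed the filter only through the later days, where it is higher, so these p-values are not independent of the filter and add no separate support. Bounds are used because its day 0 level is below background, and they set the day mean against the lowest signal of a detected probe. Between day 6 and day 18 the arrays of the dimmer probe overlapped, and its change of -0.58 ± 0.23 (SE) was not called (adjusted p = 0.0589). The third Dbt probe was detected on 0 arrays. With the mean of the 2 kept probes in place of the brighter, the rise to day 6 was 2.62 in place of 3.91 and that to day 18 was 1.67 in place of 2.59.

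Bckdhb encodes the beta subunit of the decarboxylase and lies at chr9:83925111-84124240. Its values differed by replicate number. Replicate 1 read 6.02, 6.75, 7.55, 8.49, 8.21, 8.36, 7.90 and 8.12 from day 0 to day 18. Replicate 2 read 6.63, 7.51, 8.85, 9.81, 9.49, 9.05, 9.07 and 8.86 over the same days, and replicate 3 read 6.21, 7.92, 8.60, 9.37, 9.15, 9.29, 9.07 and 9.08. Replicate 1 was the lowest on all 8 days, by 0.63 below the day mean on average, and each of the 3 series was highest on day 6. Day 6 exceeded day 0 by 2.94 ± 0.44 (SE), 7.67-fold (adjusted p = 6.11e-06), and day 18 exceeded it by 2.40 ± 0.44, 5.27-fold (adjusted p = 8.16e-05). Without background correction these changes were 1.99 and 1.53. The steps from day 2 to day 4 (0.94 ± 0.44, adjusted p = 0.0956) and from day 4 to day 6 (0.89 ± 0.44, adjusted p = 0.145) did not pass the test. With the replicate number as a block they did (adjusted p = 6.48e-05 and 0.000186). Day 18 was lower than day 6 by 0.54 with the block (adjusted p = 0.0102) and was not called without it (adjusted p = 0.38).

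Bckdk, the kinase that inactivates the complex (chr7:127904073-127909664), changed least. Its brighter probe read 9.23, 8.79 and 8.79 on day 0, 9.46, 9.22 and 9.21 on day 2, 10.31, 10.09 and 10.10 on day 4 and 10.05, 9.83 and 9.81 on day 6. From day 8 to day 18 the day means were 9.85 ± 0.13, 9.57 ± 0.22, 9.53 ± 0.15 and 9.69 ± 0.07 (SD, n = 3). The level was highest on day 4, 1.23 ± 0.13 (SE) above day 0 and 2.35-fold higher (adjusted p = 6.28e-08), whereas the day means of the 3 subunit genes were higher on day 6 than on day 4. Day 4 exceeded day 6 by 0.27, with a 95% confidence interval of 0 to 0.54 before any adjustment. That step was not called (adjusted p = 0.139) and was called as a decrease with the replicate block (adjusted p = 0.0106). On day 6 the kinase was 1.95-fold and on day 18 1.69-fold above day 0 (adjusted p = 1.98e-06 and 4.67e-05). The dimmer Bckdk probe also had its highest day mean on day 4, at 9.67 ± 0.17 (SD, n = 3) against 8.58 ± 0.13 on day 0. It was 1.98-fold higher on day 6 and 1.55-fold higher on day 18 than on day 0 (adjusted p = 3.82e-07 and 0.000135). Its arrays of days 4 and 6 overlapped, and day 6 minus day 4 was -0.11 with a 95% confidence interval of -0.36 to 0.14 (adjusted p = 0.597). The order of these days is therefore not settled by this probe.

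The difference between a subunit and its kinase was then taken within each array, which removes any shift that an array applies to both. Only the change of this difference can be read, because levels of different probes cannot be compared. Bckdha minus Bckdk lay between -0.341 and 0.0921 on the 3 arrays of day 0 and between 0.893 and 1.71 on the 15 arrays of days 6 to 18, and the mean rose by 1.34, which is 2.54-fold. Bckdhb minus Bckdk lay between -3.21 and -2.16 on day 0 and between -1.8 and -0.0119 later, and its mean rose by 1.83, or 3.55-fold. Dbt minus Bckdk lay between -2.6 and -2.31 on day 0 and between -0.991 and 0.693 later, and its mean rose by 2.42, or 5.33-fold. In none of the 3 did the early and late arrays overlap. In each case the two-sided exact permutation test gave p = 0.00123, the smallest that the 816 possible splits allow, and the same value after adjustment over the 3 tests. The 15 later arrays span 5 days and are not repeats of a single condition. The splits ignored the replicate numbers, which are taken below as pairing the samples, so the p-value does not allow for that pairing and may be too small. Within replicate numbers 1, 2 and 3 the rise was 1.44, 1.25 and 1.34 for Bckdha, 1.59, 1.83 and 2.06 for Bckdhb, and 2.57, 2.53 and 2.13 for Dbt. With the mean of the kept probes the rise for Dbt was 1.28, below the 1.35 of Bckdha and the 1.83 of Bckdhb. Without background correction the rise was 1.62 for Dbt (permutation test, adjusted p = 0.00184) and 1.04 for Bckdhb (adjusted p = 0.00368).

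**Figure D2:**
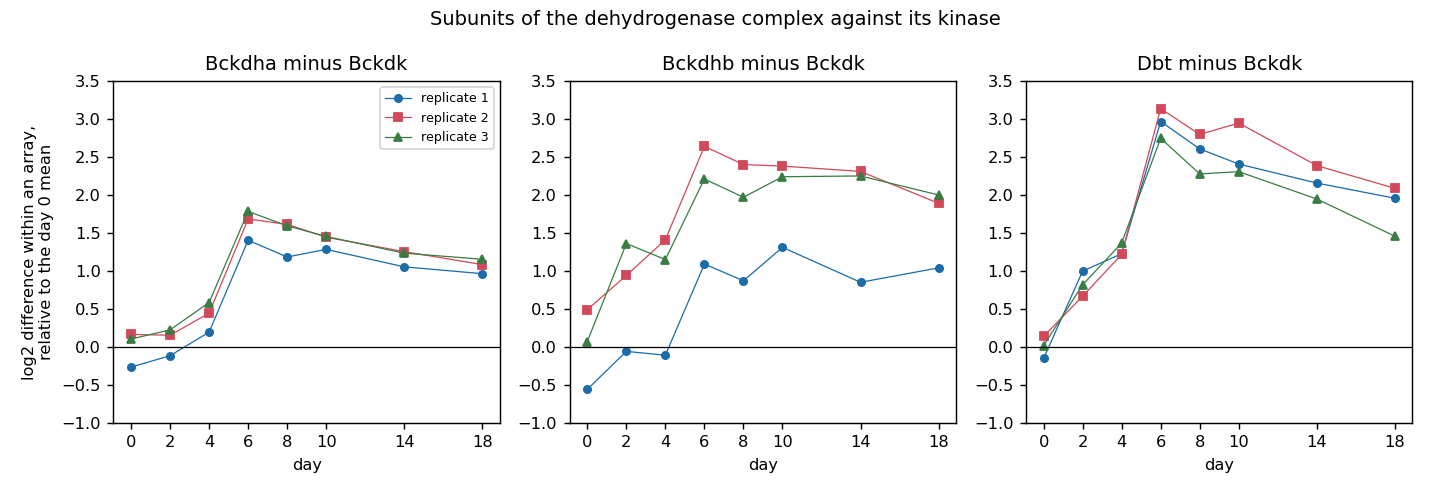
Log2 difference between each subunit gene and Bckdk within an array, shown relative to its day 0 mean, against the day of culture, with a line for each replicate number. From day 6 on every line lies above all day 0 points, and the mean rises are 1.34, 1.83 and 2.42 for Bckdha, Bckdhb and Dbt by their brightest probes.

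Ivd encodes isovaleryl-CoA dehydrogenase of the leucine branch (chr2:118861959-118882909). Its level rose to day 6 and stayed well above day 0. It read 9.27, 9.25 and 9.45 on day 0, 11.91, 11.62 and 11.69 on day 6 and 11.60, 11.38 and 11.67 on day 18. The last 2 sets overlapped each other and lay far above the first. The day means of days 8, 10 and 14 were 11.60 ± 0.08, 11.40 ± 0.16 and 11.58 ± 0.08 (SD, n = 3). Day 10 lay 0.34 below day 6, with a 95% confidence interval of 0.13 to 0.56 before any adjustment. Day 6 was 2.42 ± 0.10 (SE) above day 0, 5.34-fold (adjusted p = 3.92e-14), and day 18 was 4.68-fold above it (adjusted p = 2.17e-13). The difference between day 18 and day 6 was -0.19, with a 95% confidence interval of -0.41 to 0.03 (adjusted p = 0.169).

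The valine branch is represented by Acad8, Hibadh and Aldh6a1. Acad8 encodes isobutyryl-CoA dehydrogenase (chr9:26974138-26999571) and read 6.49, 6.18 and 6.30 on day 0, 8.36, 8.19 and 8.23 on day 6 and 7.41, 7.31 and 7.41 on day 18. The 3 sets lay apart, with day 18 between the other two. It rose 3.83-fold to day 6, a log2 change of 1.94 ± 0.11 (adjusted p = 2.84e-12), and fell by 1.84-fold from day 6 to day 18 (-0.88 ± 0.11, adjusted p = 1.8e-06). A dimmer Acad8 probe rose 3.35-fold to day 6 (adjusted p = 3.75e-12) and was lower on day 18 than on day 6 by the factor 0.625 (adjusted p = 1.86e-05). The third Acad8 probe was detected on 0 arrays. These are low signals, and without background correction the change to day 6 was 1.18 and that to day 18 was 0.56.

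Hibadh encodes 3-hydroxyisobutyrate dehydrogenase (chr6:52546230-52640300), and 3-hydroxyisobutyrate, its substrate, is known to leave cells and to promote fatty acid uptake. It read 12.27, 12.47 and 12.41 on day 0, 14.16, 14.19 and 14.10 on day 6 and 13.80, 13.77 and 13.86 on day 18. The 3 sets did not overlap, and the SD within a day was 0.10, 0.04 and 0.05. The rise to day 6 was 1.77 ± 0.08 (SE), 3.40-fold (adjusted p = 1.04e-13), and the later decrease to day 18 was 1.27-fold (-0.34 ± 0.08, adjusted p = 0.00228).

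Aldh6a1, methylmalonate-semialdehyde dehydrogenase, turns the product of Hibadh into propionyl-CoA (chr12:84430717-84451024). It read 7.95, 9.09 and 8.56 on day 0, 11.32, 12.29 and 11.75 on day 6, 11.50, 12.35 and 11.83 on day 8 and 11.14, 11.89 and 11.57 on day 18. Replicate 1 was the lowest on all 8 days, by 0.42 on average below the day mean, yet each array from day 2 on lay above all 3 of day 0. The day mean was highest on day 8, at 11.89 ± 0.43 (SD, n = 3), and its 95% confidence intervals against days 6, 10, 14 and 18 all held 0. Day 6 was 9.55-fold above day 0 (3.26 ± 0.32, adjusted p = 2.07e-08), day 8 was 10.3-fold above it and day 18 was 8.02-fold above it (3.00 ± 0.32, adjusted p = 8.84e-08). Day 18 and day 6 differed by -0.25, with a 95% confidence interval of -0.93 to 0.42 (adjusted p = 0.601).

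Pccb encodes the beta subunit of propionyl-CoA carboxylase (chr9:100982032-101034940), which passes propionyl-CoA on towards the citric acid cycle. Its brighter probe read 8.07, 8.10 and 7.99 on day 0, 7.86, 7.67 and 7.61 on day 2, 9.15, 9.24 and 9.15 on day 4 and 10.29, 10.20 and 10.21 on day 6. It was the only gene of the 10 whose lowest day was day 2, with all 3 arrays below those of day 0. The difference was -0.34 ± 0.08 (adjusted p = 0.000962). The dimmer Pccb probe differed by -0.11 ± 0.33 between these days (adjusted p = 0.816), and with the mean of both probes the difference was -0.23 (adjusted p = 0.294). Day 6 was 4.53-fold above day 0 by the brighter probe (2.18 ± 0.08, adjusted p = 2.53e-15) and 5.11-fold by the dimmer (2.35 ± 0.33, adjusted p = 2.57e-06). From day 8 to day 18 the brighter probe stayed between day means of 10.27 ± 0.04 and 9.98 ± 0.12 (SD, n = 3). Day 18 was below day 6 by the brighter probe (-0.25 ± 0.08, adjusted p = 0.0158) and not by the dimmer (0.08 ± 0.33, adjusted p = 0.893).

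Day by day, most of the rise came before day 6. Between day 0 and day 2, 9 of the 10 genes rose and Pccb fell, against 25% of all genes that rose and 26.5% that fell. The median change of the 10 was 0.58, and Bcat2 (1.33), Dbt (1.19) and Bckdhb (1.11) led. For Bckdk (0.36, adjusted p = 0.026) and Bckdhb (adjusted p = 0.0403) that call was lost when single arrays were left out: for Bckdk the adjusted p became 0.117, 0.116 and 0.122 without day 0 replicate 2, day 0 replicate 3 or day 2 replicate 1, and for Bckdhb 0.118, 0.0907, 0.0965 and 0.169 without day 0 replicate 1, day 0 replicate 3, day 2 replicate 2 or day 2 replicate 3. The call of Aldh6a1 (0.99, adjusted p = 0.0139) was lost without day 0 replicate 1 (adjusted p = 0.0962) or day 2 replicate 2 (adjusted p = 0.0703). From day 2 to day 4, 9 rose, against 18.7% of all genes, and the exception was Bckdhb. From day 4 to day 6, 8 rose, against 15.3% of all genes, and Bckdhb and Bckdk were not called. The Aldh6a1 call in that step was close to the threshold (0.87 ± 0.32, adjusted p = 0.0479) and was lost without day 4 replicate 1 (0.57, adjusted p = 0.25) or day 6 replicate 2 (0.62, adjusted p = 0.217), and the Hibadh call (0.29, adjusted p = 0.00889) was lost without day 4 replicate 3 (adjusted p = 0.0511).

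**Figure D3:**
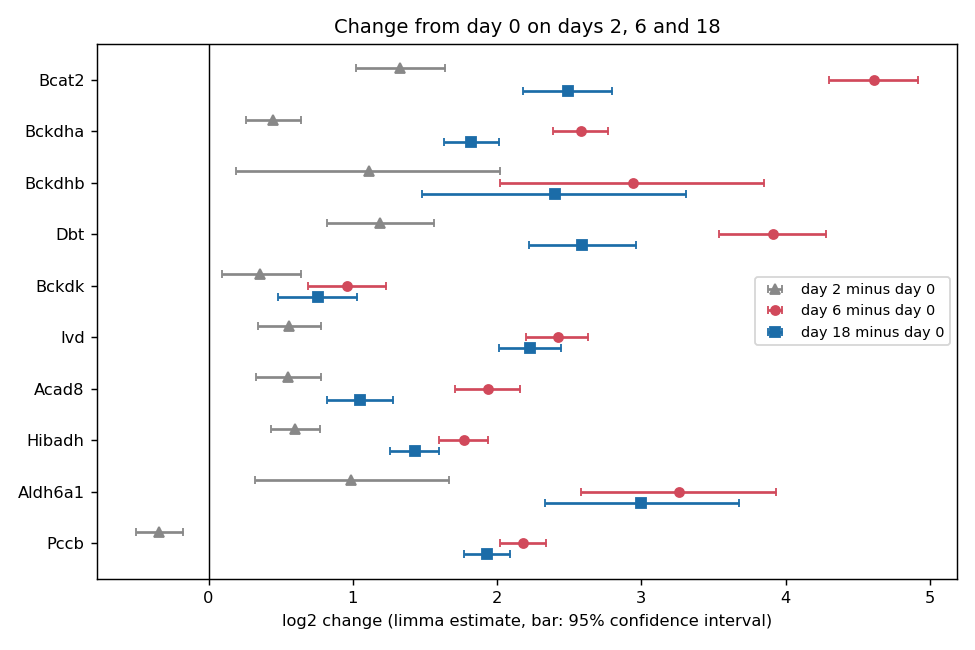
Change in log2 intensity from day 0 to days 2, 6 and 18 (horizontal axis) for the 10 genes, as limma estimates with 95% confidence intervals before any adjustment. Bcat2 and Dbt show the widest gaps between day 6 and day 18, at -2.12 and -1.32, and Pccb is the only gene below 0 on day 2.

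After day 6 the levels drifted down unevenly. Bcat2 (-1.10 ± 0.15, adjusted p = 3.49e-05) and Acad8 (-0.47 ± 0.11, adjusted p = 0.00587) fell from day 6 to day 8, against 5.45% of all genes that fell, and the replicate block added Dbt (-0.43, adjusted p = 0.0122) for 3 of the 10 against 10.6% of all genes. From day 8 to day 10 Bckdha fell (-0.35 ± 0.09, adjusted p = 0.0337), against 1.59% of all genes, and with the block Bcat2, Acad8 and Bckdk joined it, 4 of the 10 against 5.01% of all genes. From day 10 to day 14 limma called 0 members lower, against 1.03% of all genes. Before adjustment the limma p-values of Bcat2, Bckdha and Dbt in that step were 0.00251, 0.0104 and 0.023. The share of all genes with unadjusted p-values this low was not counted. The block called 2, Bcat2 (adjusted p = 0.00812) and Dbt (adjusted p = 0.0359), against 2.74% of all genes. Between days 14 and 18 limma called 0 members, with or without the block, against 0.45% of all genes that rose and 0.0314% that fell, and the members' differences ran from -0.17 to 0.16 with 0 unadjusted p-values under 0.05. Over the whole span from day 6 to day 18, 6 of the 10 fell, against 18.5% of all genes: Bcat2, Dbt, Acad8, Bckdha, Hibadh and Pccb. Over the same span the means of 5 fibroblast markers increased, for example that of Dlk1 from 10.83 to 12.17 and that of Lox from 9.81 to 11.21. Among adipocyte markers the means of Adipoq (13.98 to 14.09), Plin1 (8.99 to 9.27) and Lep (6.23 to 7.85) increased. Those of Slc2a4 (9.8 to 9.75) and Cidec (13.76 to 12.82) decreased. The part of either cell type in the fall of the 6 genes was not tested. With the replicate block 8 fell, against 25.4% of all genes, the additional ones being Bckdhb (adjusted p = 0.0102) and Bckdk (-0.20, adjusted p = 0.0431). By its dimmer probe Bckdk was called lower without the block (-0.36 ± 0.12, adjusted p = 0.024). The Pccb call was lost without day 6 replicate 1 (adjusted p = 0.0656) or day 18 replicate 1 (adjusted p = 0.0985).

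The shapes of the 10 courses were alike to different degrees. Over the 45 pairs of genes, Pearson's r between the 8 day means ran from 0.633 to 0.991 with a median of 0.944. Among the 36 pairs that leave out Bckdk the lowest was 0.791. Highest day means fell on day 6 for Bcat2, Bckdha, Bckdhb, Dbt, Ivd, Acad8 and Hibadh, on day 8 for Aldh6a1 and Pccb and on day 4 for Bckdk. For Pccb day 8 exceeded day 6 by 0.04, with a 95% confidence interval of -0.13 to 0.20, so the order of these days is not settled. For Ivd the intervals against days 8, 14 and 18 held 0, for Hibadh that against day 8 did, and for Bckdhb those against days 4, 8, 10, 14 and 18 did.

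Replicate number left a mark on some probes of the group. Arrays with the same number deviated from their day means together (correlations of 0.251 to 0.762 across all genes), and replicate 1 stood apart from replicates 2 and 3. The dimmer Pccb probe was lowest in replicate 1 on all 8 days, by 0.44 on average, while the brighter Pccb probe of the same RNA averaged 0.01 above its day mean there. Bckdhb and Aldh6a1 behaved as the dimmer Pccb probe did, whereas Bckdk (0.16) and Dbt (0.16 by its brightest probe) were higher in replicate 1 than the day mean. Over all genes the mean SD within a day had a median of 0.148, and 2.18% of genes had a larger one than Bckdhb, at 0.57. In 2.91% of genes replicate 1 was at least 0.5 below the day mean, and in 0.575% it was at least 0.5 above. The part of replicate number in the levels of these genes was not tested further than by the block.

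**Figure D4:**
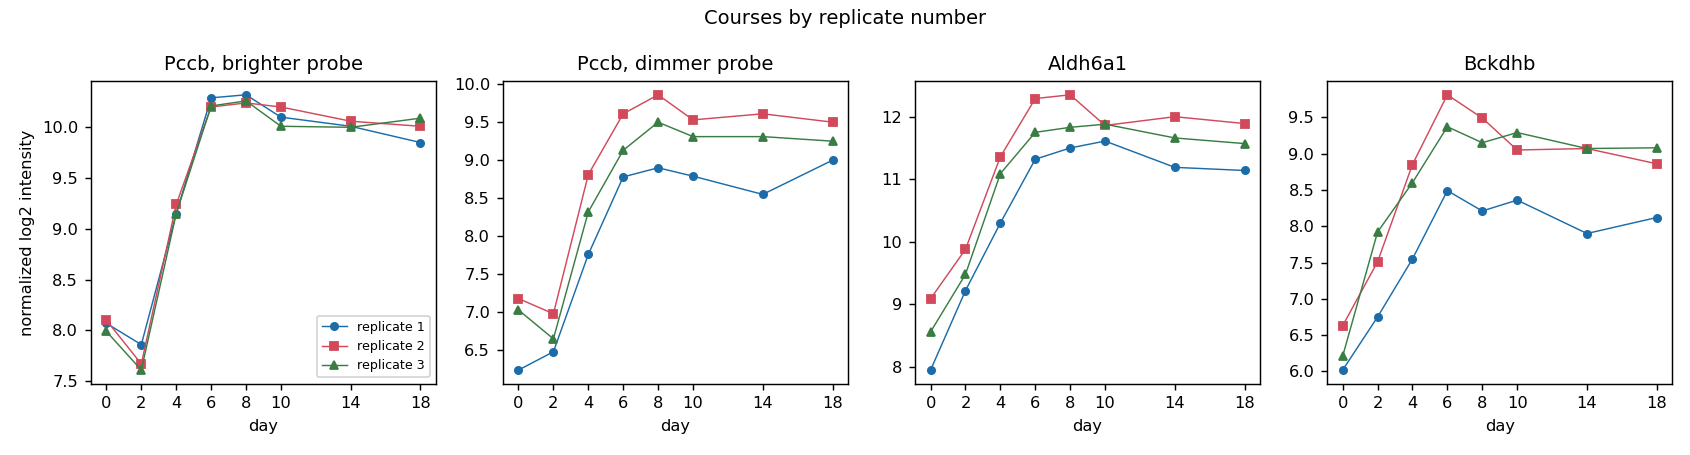
Normalized log2 intensity against the day of culture with a line for each replicate number, for the brighter and the dimmer probe of Pccb, for Aldh6a1 and for Bckdhb, each on its own vertical scale. Replicate 1 is the lowest line on all 8 days in the panels of the dimmer Pccb probe, Aldh6a1 and Bckdhb but not in that of the brighter Pccb probe.

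Of 34 other genes of the pathway, its transport, cofactors and regulators, 27 had a probe that passed the filter, all tested in the same fit. This list too was chosen with earlier results of these data known, so the shares below describe it and do not test it. On day 18 against day 0, 17 of the 27 rose, 1 fell and 9 were not called, with a median of 0.76. Of all genes 23.2% rose and 34% fell. On day 6 against day 0, 20 rose and 1 fell, with a median of 1.22, where 27.6% of all genes rose and 33.1% fell. By role, 6 of 11 further enzymes, 2 of 4 transporters, 5 of 8 cofactor genes and 4 of 4 regulators rose to day 18, and the gene that fell was an enzyme. One regulator, Ppargc1a, is named here after its values were seen. It did not pass the F test over the course (adjusted p = 0.151) and did with the replicate block (adjusted p = 1.52e-10). Its arrays overlapped, at 5.18 to 6.72 on day 0 and 6.64 to 8.49 on day 18. With the replicate block 21 of the 27 rose to day 18, against 27% of all genes, and 1 fell.

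Bcat1, the cytosolic transaminase, was the gene that fell. It read 8.35, 8.25 and 8.26 on day 0, 5.46, 5.14 and 5.17 on day 4, 5.89, 5.63 and 5.44 on day 6 and 7.83, 7.46 and 7.67 on day 18. The day mean was lowest on day 4, where the arrays overlapped those of day 6, and all 3 arrays of day 18 lay below those of day 0. Bcat1 was lower on day 6 than on day 0 by 2.64 on the log2 scale (fold 0.161, adjusted p = 2.18e-13), rose 4.00-fold from day 6 to day 18 (adjusted p = 2.33e-10) and ended 0.644 times its day 0 level (adjusted p = 0.000204). These values are from the brightest of its 3 probes, and the other probes were detected on few arrays.

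Among the regulators, Pparg, the nuclear receptor that drives adipocyte differentiation, rose from 9.39 ± 0.16 (SD, n = 3) on day 0 to 12.64 ± 0.09 on day 18, 9.50-fold (adjusted p = 9.38e-16). Ppargc1b, a coactivator of mitochondrial genes, rose 8.31-fold (3.06 ± 0.25, adjusted p = 1.37e-09). Klf15, a factor known to act on amino acid breakdown genes in muscle and liver, was undetected on the 3 arrays of day 0 and at least 3.81-fold higher on day 18 (adjusted p = 5.28e-07). Its probe passed the filter only through days after day 0, so that p-value is not independent of the filter. Pparg was already 4.67-fold higher on day 2 (adjusted p = 8.14e-13), whereas Klf15 was not called on day 2 (0.28 ± 0.27, adjusted p = 0.419).

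Of the further enzymes, Mccc1, a subunit of the leucine branch carboxylase, rose 6.22-fold to day 18 (2.64 ± 0.67, adjusted p = 0.00195) and Dld, the dehydrogenase that the complex shares with other ketoacid dehydrogenases, rose 3.6-fold (1.85 ± 0.60, adjusted p = 0.0128). Replicate 1 was the lowest on all 8 days for both, by 0.93 and 0.87 on average. Dld did not pass the F test over the whole course (adjusted p = 0.0642) and did with the replicate block (adjusted p = 5.97e-12). Echs1, a hydratase of several branches, rose 4.87-fold (2.28 ± 0.11, adjusted p = 4.36e-13). Mmab, which makes the cobalamin cofactor of the last step of propionate use, rose 4.71-fold (adjusted p = 8.65e-14). Slc25a44, the mitochondrial carrier for branched-chain amino acids, read 6.99, 6.66 and 7.0 on day 0 and 9.12, 8.92 and 9.06 on day 18, a rise of 4.44-fold (adjusted p = 1.68e-12). Ppm1k, the phosphatase that opposes Bckdk, is added here after its values were seen: its means on days 0, 6 and 18 were 7.57 ± 0.06, 9.0 ± 0.07 and 8.11 ± 0.07 (SD, n = 3), 2.69-fold above day 0 on day 6 (adjusted p = 1.58e-07) and 1.45-fold on day 18 (adjusted p = 0.00805).

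**Figure D5:**
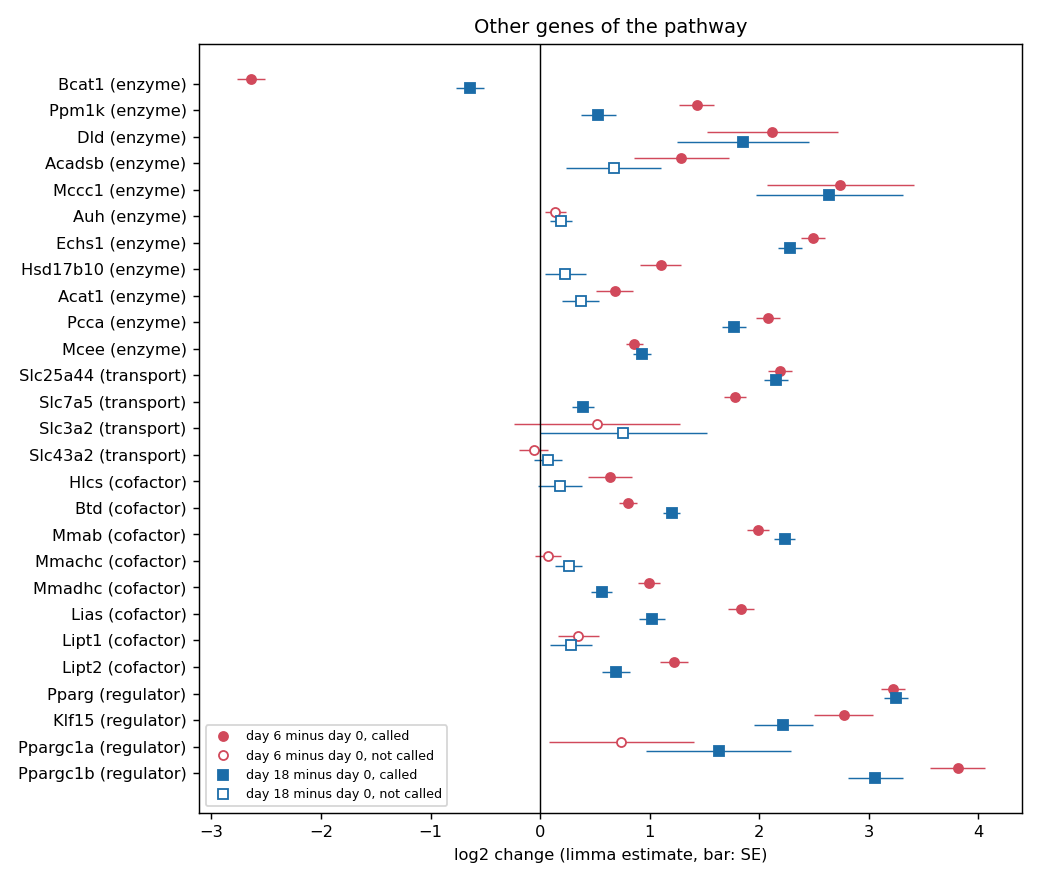
Log2 change from day 0 to day 6 (circles) and to day 18 (squares) for the 27 other pathway genes tested, as limma estimates with SE bars, filled where the adjusted p is under 0.05. Most points lie to the right of 0 and Bcat1 lies to the left on both days; for Klf15 and others undetected on day 0 the fitted change depends on the background level.

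On each array 11695 to 12531 of the 25697 probes were detected, 45.5% to 48.8%, and the number of arrays, 3 a day, limits the precision. Of 6 adipocyte markers 5 had a probe, and their day 0 means of 4.28 to 4.60 were near background. Adipoq reached 14.09 on day 18 against 4.60 at the start, and Slc2a4 reached 9.75 against 4.54. The 5 fibroblast markers were detected on all 24 arrays and had lower means on day 18 than on day 0, with the lowest of days 0, 6 and 18 on day 6. On these days Dlk1 averaged 13.87, 10.83 and 12.17, Col1a1 12.75, 9.82 and 11.25, Lox 13.17, 9.81 and 11.21, Col3a1 11.3, 8.83 and 10.75 and Pdgfra 12.08, 9.88 and 10.23. Ucp1, the defining gene of brown adipocytes, was detected on 0 arrays, while Cidea and Cox8b of the same list reached 9.02 and 12.79 on day 18. Of the macrophage, endothelial, skeletal muscle and liver markers with a probe, Adgre1, Ptprc, Pecam1, Cdh5, Myod1, Ckm, Alb and Apoa2 were detected on 0 arrays, and Myog was on 19 with day means near background of 4.94 and 5.14 on days 0 and 18. The part of the share of differentiated cells in the rise of the 10 genes was not tested.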

How the data were processed

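Total RNA of 24 samples (8 days, 3 replicates each) was read on Illumina beadchips. The values used were the deposited raw intensity of each probe, neither background-subtracted nor normalized, and the detection p-value deposited beside it. Intensity that the authors had normalized, in a way the sources used here do not describe, served as an alternative. GenomeStudio 2011.1 is named in the submitters' processing notes, without its role, and no genome build or chip is given there.

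Log2 intensity, background-corrected from the detection p-values and then quantile normalized, was computed from the deposited values with neqc of limma 3.58.1 (R 4.3.3, offset 16), so differences that start near background are compressed. Probes detected (p under 0.05) on at least 3 of 24 arrays were kept, 14160 of 25697. Of all probes 23978 carried 1 gene symbol, 0 several and 1719 none, and the Entrez identifier of 23962 probes was found in RefSeq, from which positions on GRCm38.p6 were taken. For each of 9558 genes the brightest probe on average was used. A linear model with a mean per day over all 24 arrays (16 residual degrees of freedom) was fitted with moderated F tests and 14 contrasts between days, and p-values were Benjamini-Hochberg adjusted over all genes with a threshold of 0.05. The fit was tested on simulated data with independent noise on each array. Those data lack the likeness between arrays of the same replicate number, so the test does not cover it. Subunit to kinase differences were tested by exact permutation over arrays, two-sided, without regard to replicate number.

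Replicate numbers come from the labels. Deviations from the day means correlated at 0.251 to 0.762 (median 0.528) between arrays of the same number and at -0.617 to 0.251 (median -0.390) between numbers, so the numbers were taken as pairing the samples, and a fit with the number as a block was an alternative. Other alternatives were no background correction, median scaling, the authors' values, other filters, other probe rules, an intensity trend, only the days compared, and leaving out arrays.

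The 10 members and the list of 34 other genes were chosen with earlier results of these data known. All members are named. Of the other genes, the 8 called with the largest change between day 18 and day 0 are named, with any called against the majority, and the 5 genes most like the member with the largest span. Hibch, Mmut, Slc7a8 and Mmaa had no probe that passed the filter, and the remaining untested genes of that list are not reported here.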

Additional observations from a re-analysis of the deposited data

How the results depend on the processing

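The calls of all 10 genes over the course, and their rises from day 0 to days 6 and 18, held under every alternative run, including each array left out in turn and, an alternative chosen after seeing the data, all 8 arrays of a replicate number left out. The size depended on background correction for dim genes: without it the change to day 6 was 2.94 for Dbt in place of 3.91, 1.99 for Bckdhb in place of 2.94 and 1.18 for Acad8 in place of 1.94. With median scaling 4 genes fell from day 6 to day 8 in place of 2, the additional ones being Bckdha (adjusted p = 0.0287) and Hibadh (adjusted p = 0.0468), and that scaling moved the median of all genes from -0.079 to -0.174 for day 18 against day 0. The share of all genes that fell in that step under median scaling was not counted. With the mean of probes 0 genes fell from day 0 to day 2 in place of 1. With the replicate block 1 gene, Bckdk, fell from day 4 to day 6 in place of 0, and the paired fit changed no member calls beside those given with the results. Shares of all genes are not given here for that step with the block, for the mean of probes or for fits with arrays left out. The counts under these alternatives therefore show only how the calls of the members moved. The Aldh6a1 step from day 4 to day 6 missed the threshold with median scaling (adjusted p = 0.0606), the authors' values (0.0508), no filter (0.083), every probe on its own (0.0517) and only the days compared (0.112), and when any of several single arrays of other days was left out. Other small steps that missed the threshold under an alternative were Bckdhb on day 2 without background correction (adjusted p = 0.151) or without a filter (0.0729), Hibadh from day 4 to day 6 with median scaling (0.135) or only the days compared (0.0587), and, with only the days compared, Bckdk on day 2 (0.0768) and Pccb from day 6 to day 18 (0.0992). The Acad8 decrease from day 6 to day 8 missed it without all arrays of replicate 2 (0.0615) or 3 (0.115), the Hibadh decrease from day 6 to day 18 without replicate 1 (0.054) and the Aldh6a1 step from day 2 to day 4 without replicate 3 (0.0953). Leaving out 1 array gave 7 to 9 genes higher and 1 lower on day 2, 9 to 10 higher from day 2 to day 4, 6 to 8 higher from day 4 to day 6, 2 lower from day 6 to day 8 and 5 to 6 lower from day 6 to day 18. Of the other pathway genes 19 to 21 were higher on day 6 and 16 to 18 on day 18, and 1 was lower on both. The subunit to kinase rises ran from 1.21 to 1.42 for Bckdha, 1.55 to 2.07 for Bckdhb and 2.34 to 2.48 for Dbt. Leaving out a replicate number gave 6 to 9 genes higher on day 2, 8 to 10 and 6 to 8 higher in the next steps, 1 to 2 lower from day 6 to day 8 and 5 to 6 lower from day 6 to day 18. Of the other pathway genes it left 16 to 20 higher on day 6 and 14 to 18 on day 18, and the subunit rises were 1.29 to 1.39, 1.71 to 1.95 and 2.34 to 2.55. The chip as a block was not run because the file headers used here do not give it. Where no value is given for a cause, the cause was not tested.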

Other observations

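Other genes of the pathway, named here after their values were seen, followed courses of several kinds. Slc7a5, the light chain of the plasma membrane exchanger that brings leucine into cells, read 9.88, 9.84 and 9.84 on day 0, 12.52, 12.37 and 12.50 on day 4 and 10.21, 10.08 and 10.44 on day 18. Its level was highest on day 4, 6.11-fold above day 0 (limma, adjusted p = 1.4e-14), and was lower on day 18 than on day 6 by the factor 0.382 (adjusted p = 2.58e-09). Pcca, the partner subunit of Pccb in propionyl-CoA carboxylase, was 4.24-fold above day 0 on day 6 (adjusted p = 1.11e-12) and 3.42-fold on day 18 (adjusted p = 2.26e-11), next to 4.53-fold and 3.81-fold for Pccb. Lias, which makes the lipoyl group that the Dbt product carries, rose 3.56-fold to day 6 (adjusted p = 2.82e-11) and fell to 0.568 of that level by day 18 (adjusted p = 1.53e-05). Hsd17b10, a dehydrogenase of the isoleucine branch, rose 2.15-fold to day 6 (adjusted p = 3.72e-05) and on day 18 differed from day 0 by 0.23 ± 0.19 (adjusted p = 0.33), a difference that was called with the replicate block (adjusted p = 0.00594). Btd, which recycles the biotin of the carboxylases, was 1.74-fold above day 0 on day 6 (adjusted p = 2.7e-08) and rose by a further 1.32-fold to day 18 (adjusted p = 0.000451).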
